A study of Mus musculus with 8 samples.

Results

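Ribosome biogenesis was followed through 45 genes in tumours of the mouse spleen in which the transcription factor Miz1 either lacked its POZ domain or was wild type. The 45 genes were chosen as a set of nucleolar, RNA polymerase I, ribosome assembly and polyamine genes that are known as targets induced by Myc, and their symbols were matched to the gene identifiers of the count files. All 45 were found among the 41214 genes counted, and all 45 passed the filter on low counts that left 16456 genes for testing. The study measured poly(A) RNA by stranded sequencing in 8 tumours of C57Bl6 mice, each from its own mouse, in 4 groups of 2: CD4+ T cell tumours with Miz1 deltaPOZ, CD4+ T cell tumours with Miz1 wt, B cell tumours with Miz1 deltaPOZ and B cell tumours with Miz1 wt. The comparison of deltaPOZ with wt asks what loss of the POZ domain, through which Miz1 forms complexes and holds partners such as Bcl6, does to expression in the same tumour type. The names under which the T cell libraries were deposited all carry a Notch tag and another run tag than those of the B cell libraries, so lineage, tumour model and run cannot be told apart. The names of the T deltaPOZ libraries also carry an ENU tag that those of T wt lack, so genotype and this tag cannot be told apart in T cell tumours. The sources used here do not say what started the B cell tumours or in which cells Miz1 was changed. The labels name no designed change of Myc, which does not show that the tumour models lacked one. The words "induced by Myc" describe how the genes were chosen and were not tested.

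A ribosome is built in the nucleolus, where RNA polymerase I copies the ribosomal RNA genes into one long precursor. Small nucleolar ribonucleoproteins (snoRNPs) modify that precursor, and separate sets of assembly factors cut and fold it into the small and the large subunit. Myc is known to drive transcription of many of these genes through E-boxes and to raise polyamine synthesis, and Miz1 is known both as a partner through which Myc represses genes and as an activator of its own targets.

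The promoters were read for letters the genes share at their starts. RefSeq promoter sequences (GRCm38.p6, 250 bases before to 50 bases after the start) were at hand for 39 of the 45 genes, and each was searched for 3 short motifs on both strands. CACGTG, the canonical E-box bound by Myc and Max, stood in 8 of the 39 promoters (20.5%), against 8.09% of all 27025 genes in the table and 11.3% of the 11326 that were also tested here. Of the 9 sites in these 8 promoters, 6 lay after the start and 3 before it. In the 250 bases before the start alone, 2 of 39 promoters held the motif (5.13%), against 6.86% of all genes and 9.44% of the tested ones. These 9 sites are shown because the E-box is a letter string that Myc and Max can bind. CACGTG is in capitals with up to 10 bases on either side, 5' to 3' on the gene's strand.
Rrn3, chr16:13780474-13780499, plus strand: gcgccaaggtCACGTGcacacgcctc
Rrn3, chr16:13780641-13780666, plus strand: acgctctgctCACGTGggccgcgtcc
Mybbp1a, chr11:72441357-72441376, plus strand: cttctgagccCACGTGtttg
Wdr43, chr17:71616222-71616247, plus strand: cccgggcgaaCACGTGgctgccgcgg
Pno1, chr11:17211540-17211562, minus strand: tacaaccacgCACGTGttcctct
Tsr1, chr11:74898094-74898119, plus strand: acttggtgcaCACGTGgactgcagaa
Ltv1, chr10:13193094-13193119, minus strand: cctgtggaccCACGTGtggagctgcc
Pes1, chr11:3963967-3963992, plus strand: ctaggcagggCACGTGcgggaggaag
Nop2, chr6:125131813-125131838, plus strand: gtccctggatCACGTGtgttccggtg

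The variant E-box CGCGTG, read on the other strand as CACGCG, stood in 12 of 39 promoters (30.8%), against 10.5% of all genes in the table and 19.1% of the tested ones. In the 250 bases before the start alone, 8 of 39 held it (20.5%), against 8.65% of all genes and 15.7% of the tested ones. Mybbp1a and Pes1 held both E-box forms, so that 18 of 39 promoters (46.2%) held at least one, against 27.8% of tested genes. No site of one form overlapped a site of the other. In Mybbp1a sites of the variant on opposite strands overlapped each other, and in Polr1c such sites lay end to end. ATCGAT, the core letters reported for a Miz1 motif, was in 1 of 39 promoters, that of Pno1 across its start, against 1.02% of all genes. A match describes letters only. Nolc1 and Polr1b, which had the smallest p of the nucleolar and RNA polymerase I genes in the B cell comparison, are shown with the 250 bases before their starts. Capitals mark CGCGTG, which Nolc1 holds and Polr1b does not.
Nolc1, chr19:46075597-46075846, plus strand: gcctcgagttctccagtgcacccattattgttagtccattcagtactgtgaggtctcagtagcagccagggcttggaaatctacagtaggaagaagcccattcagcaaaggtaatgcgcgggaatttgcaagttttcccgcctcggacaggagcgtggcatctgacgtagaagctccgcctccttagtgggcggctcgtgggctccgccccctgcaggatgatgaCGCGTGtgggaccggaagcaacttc
Polr1b, chr2:129100746-129100995, plus strand: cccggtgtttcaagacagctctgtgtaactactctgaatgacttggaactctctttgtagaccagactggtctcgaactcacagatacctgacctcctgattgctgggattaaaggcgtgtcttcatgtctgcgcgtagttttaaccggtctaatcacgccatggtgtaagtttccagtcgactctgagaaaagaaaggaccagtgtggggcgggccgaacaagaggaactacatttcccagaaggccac

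Gene counts summed to 44330101 to 58271208 per library, so that 3 counts, the limit that a count of 0 allows, correspond to 0.0515 to 0.0677 per-million counts (CPM); such limits cover counting error only. Levels below are CPM scaled by trimmed mean of M values factors. B cell markers (7 genes) summed to 18.1 to 103 CPM in T libraries and 1504 to 2525 CPM in B libraries, and T cell markers (8 genes) to 1699.9 to 2528 CPM in T libraries and 17.1 to 53.0 CPM in B libraries. Erythroid markers (7 genes) summed to 6622 and 10559.8 CPM in T deltaPOZ, 4023 and 18909 in T wt, 10.3 and 187 in B deltaPOZ and 3.82 and 3.65 CPM in B wt tumours. Myeloid markers (7 genes) summed to 1246 CPM in B wt 2, above the 93.6 to 629 CPM of the other 7 libraries. T deltaPOZ 2 stood apart with 25387 genes detected, against 18339 to 21078 in the others. Xist, the RNA of the inactive X, was at 11.8 and 35.4 CPM in T deltaPOZ, 1246 and 26.0 in T wt, 0.936 and 0.757 in B deltaPOZ and 975 and 1477 CPM in B wt tumours. Ddx3y, a gene of the Y chromosome, was at 142 and 184 CPM in T deltaPOZ, 22.5 and 178 in T wt, 174 and 133 in B deltaPOZ and 0.0949 and 0.289 CPM in B wt tumours. In B cell tumours sex and genotype therefore cannot be told apart. T wt 1 stood apart, with Xist as high as in B wt beside a Ddx3y level below the other 3 T libraries and above both B wt libraries, and whether it holds RNA of both sexes was not tested. Results were also computed without B wt 2, T wt 1 and T deltaPOZ 2.

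Together the 45 genes took 10516 and 8044 CPM in T deltaPOZ, 7365 and 8947 in T wt, 17501 and 18062 in B deltaPOZ and 11969 and 14072 CPM in B wt tumours. Every B library was above every T library, and both B deltaPOZ libraries were above both B wt libraries. T deltaPOZ libraries lay on either side of T wt 2. Divided by transcript length, the highest mean level over the 8 libraries was that of Npm1, at 1503 CPM per kilobase, followed by Nop58 at 291 and Nop56 at 244 CPM per kilobase, and the lowest was that of Bysl, at 13.0. In bulk tissue, fewer cells of a type and less RNA per cell cannot be told apart.

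**Figure D1:**
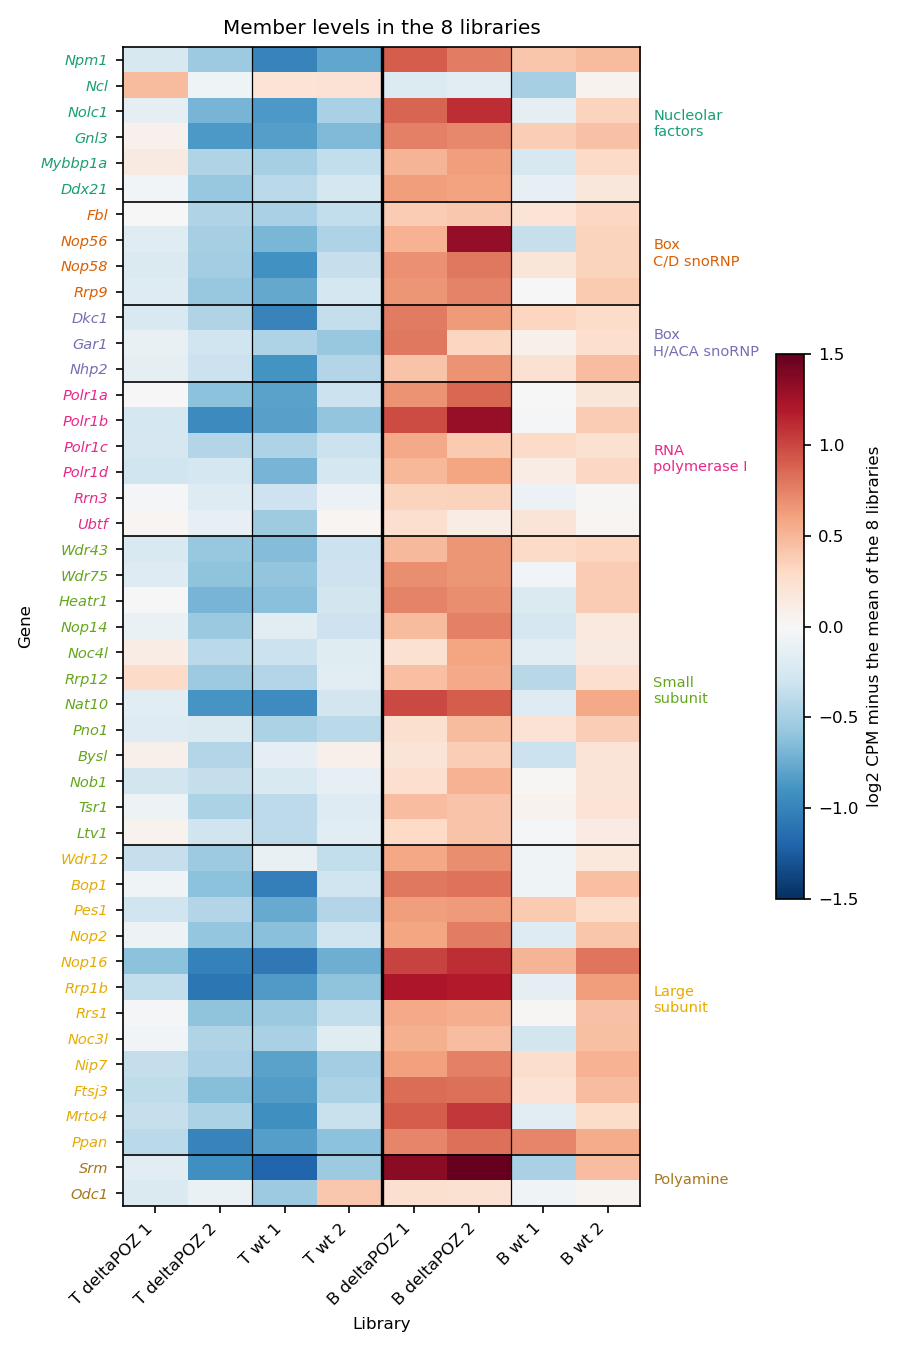
Level of each of the 45 genes (rows, grouped and coloured by role) in the 8 libraries (columns), as log2 CPM minus that gene's mean over the 8 libraries; red is above the mean and blue below. B deltaPOZ 1 and 2 are above the mean for every gene but Ncl, and the 4 T libraries are mostly below it.

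In T cell tumours nearly the whole set was lower than in B cell tumours. The log2 fold change of T over B was negative for 44 of 45 genes, with 47.6% of all tested genes negative, and its median was -0.80, against 0.050 over all tested genes. By the quasi-likelihood test of edgeR, with p adjusted by Benjamini-Hochberg over every tested gene, 36 of 45 fell and 0 rose, while 16% of all tested genes fell and 19.3% rose; at an unadjusted p under 0.05, 39 were lower (21.6% of all tested genes) and 0 higher (25%), and DESeq2 and limma-voom also called 0 higher. The 36 were 5 of 6 nucleolar factors, 4 of 4 box C/D and 3 of 3 box H/ACA snoRNP proteins, 4 of 6 RNA polymerase I genes, 8 of 12 small-subunit and 11 of 12 large-subunit factors, and 1 of 2 polyamine genes. In 26 of them the 4 T libraries lay wholly below the 4 B libraries, as did 17% of all tested genes; in the other 10 the lineages overlapped, each time with T deltaPOZ 1 above B wt 1. Within deltaPOZ tumours 27 of 45 fell in T against B (7.4% of all tested genes), and within wt tumours 13 of 45 (6.68% of all tested genes); the median log2 fold change of the 45 was -0.99 within deltaPOZ tumours and -0.68 within wt tumours. The erythroid markers given above also differed between the lineages, and their part in these differences was not tested. Without T wt 1 the count was 24 and the median -0.75. Without B wt 2, T wt 1 and T deltaPOZ 2 together, which leaves 1 residual degree of freedom, 2 of 45 were called, Nop16 and Ppan, with a median of -0.61 and 7.90% of all genes called in either direction.

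In B cell tumours all 45 genes had a positive log2 fold change of deltaPOZ over wt, with 48.1% of all tested genes positive, and edgeR called none of the 45. The median was 0.42, against -0.009 over all tested genes. Both deltaPOZ libraries were above both wt libraries for 39 of 45 genes, as for 19.9% of all tested genes. edgeR called 0 of 45 (smallest adjusted p = 0.291, and 0.00608% of all tested genes called higher), limma-voom 0 and DESeq2 1, Srm. DESeq2 called 1.99% of the genes with an adjusted p higher and 4.59% in either direction. At an unadjusted p under 0.05 edgeR found 11 higher, with 5.68% of all tested genes higher at that level. In the same tumours B cell markers summed to 1640.2 and 1504 CPM in deltaPOZ and 2525 and 1994 CPM in wt. Myeloid markers summed to 216 and 93.6 CPM in deltaPOZ and 169 and 1246 CPM in wt. The part of these cells in the values of the 45 genes was not tested. B wt 1 was the lowest of the 4 B libraries for 40 of 45 genes. Without B wt 1 the median was 0.30, 43 of 45 stayed positive and 0 reached an unadjusted p under 0.05; without B deltaPOZ 2 there were 3 such genes and without B wt 2 there were 18.

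In T cell tumours most of the 45 genes were slightly higher in deltaPOZ than in wt, but that direction rested on single libraries. The log2 fold change was positive for 40 of 45 genes (49.8% of all tested genes), with a median of 0.14, against -9.5e-05 over all tested genes. Both deltaPOZ libraries were above both wt libraries for 5 genes, Npm1, Gar1, Nhp2, Nip7 and Pno1 (15.4% of all tested genes), and below them for 1, Nob1 (17%). edgeR, limma-voom and DESeq2 each called 0 of 45, with every edgeR adjusted p of the 45 at 1, and edgeR called 0% of all tested genes higher and DESeq2 0.343% in either direction; at an unadjusted p under 0.05 edgeR found 1, Npm1, with 1.3% of all tested genes higher at that level. T deltaPOZ 1 was the highest of the 4 T libraries for 39 of 45 genes, T wt 1 was the lowest for 28 and T deltaPOZ 2 for 16. Without T deltaPOZ 1 the median was -0.093 with 13 of 45 positive. Without T wt 1, the T library with the highest Xist and the lowest Ddx3y, the median was -0.016 with 20 positive. Without T deltaPOZ 2 it was 0.32, and without T wt 2 0.32.

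**Figure D2:**
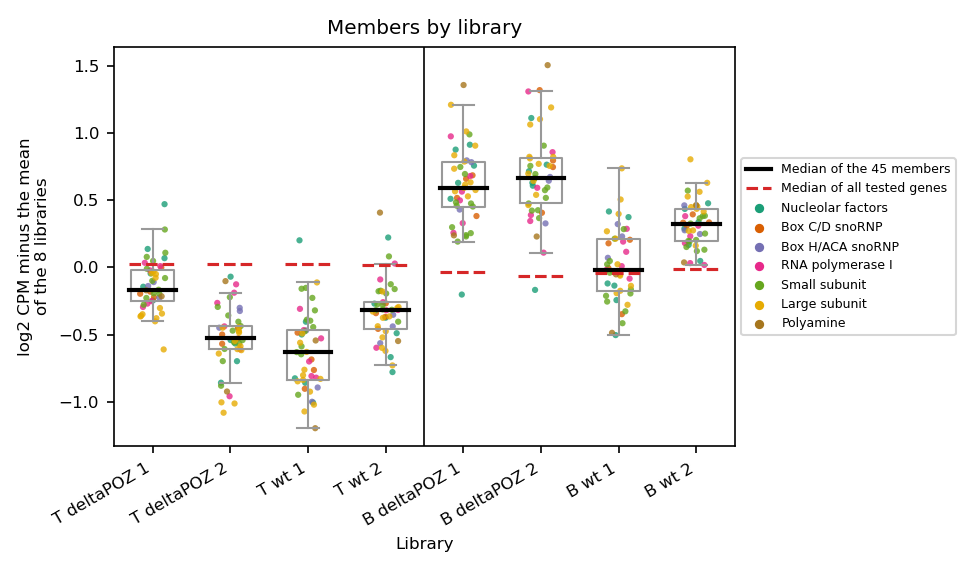
Level of the 45 genes in each library, as log2 CPM minus the gene's mean over the 8 libraries. Points are genes coloured by role, boxes span the quartiles with whiskers to the last point within 1.5 box lengths, black bars are the median of the 45 genes and dashed red bars that of all tested genes. The black bars are at -0.17 and -0.53 in T deltaPOZ, -0.63 and -0.32 in T wt, 0.59 and 0.66 in B deltaPOZ and -0.019 and 0.33 in B wt.

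The average of the deltaPOZ effects in T and B was positive for 45 of 45 genes (49.8% of all tested genes), with a median of 0.29. edgeR called 0 of 45, limma-voom 0 and DESeq2 0 (2.29% of all genes by DESeq2), and 7 were higher at an unadjusted edgeR p under 0.05 (4.19% of all tested genes). Npm1, Gar1 and Nip7 were the 3 genes whose deltaPOZ libraries lay above the wt libraries in both lineages, as did 3.6% of all tested genes. The deltaPOZ effect in T minus that in B was negative for 39 of 45 genes (48.8% of all tested genes), with a median of -0.29. By the interaction test edgeR, limma-voom and DESeq2 each called 0 of 45 (1.48% of all genes by DESeq2), and 1 had an unadjusted edgeR p under 0.05 (2.61% of all tested genes lower at that level): Wdr12, at -0.79 (SE 0.25, edgeR adjusted p = 0.719). Nob1 was the 1 gene with both deltaPOZ libraries below wt in T and above wt in B, as were 2.35% of all tested genes. The effect was thus not shown to differ between the lineages for any of the 45 genes.

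**Figure D3:**
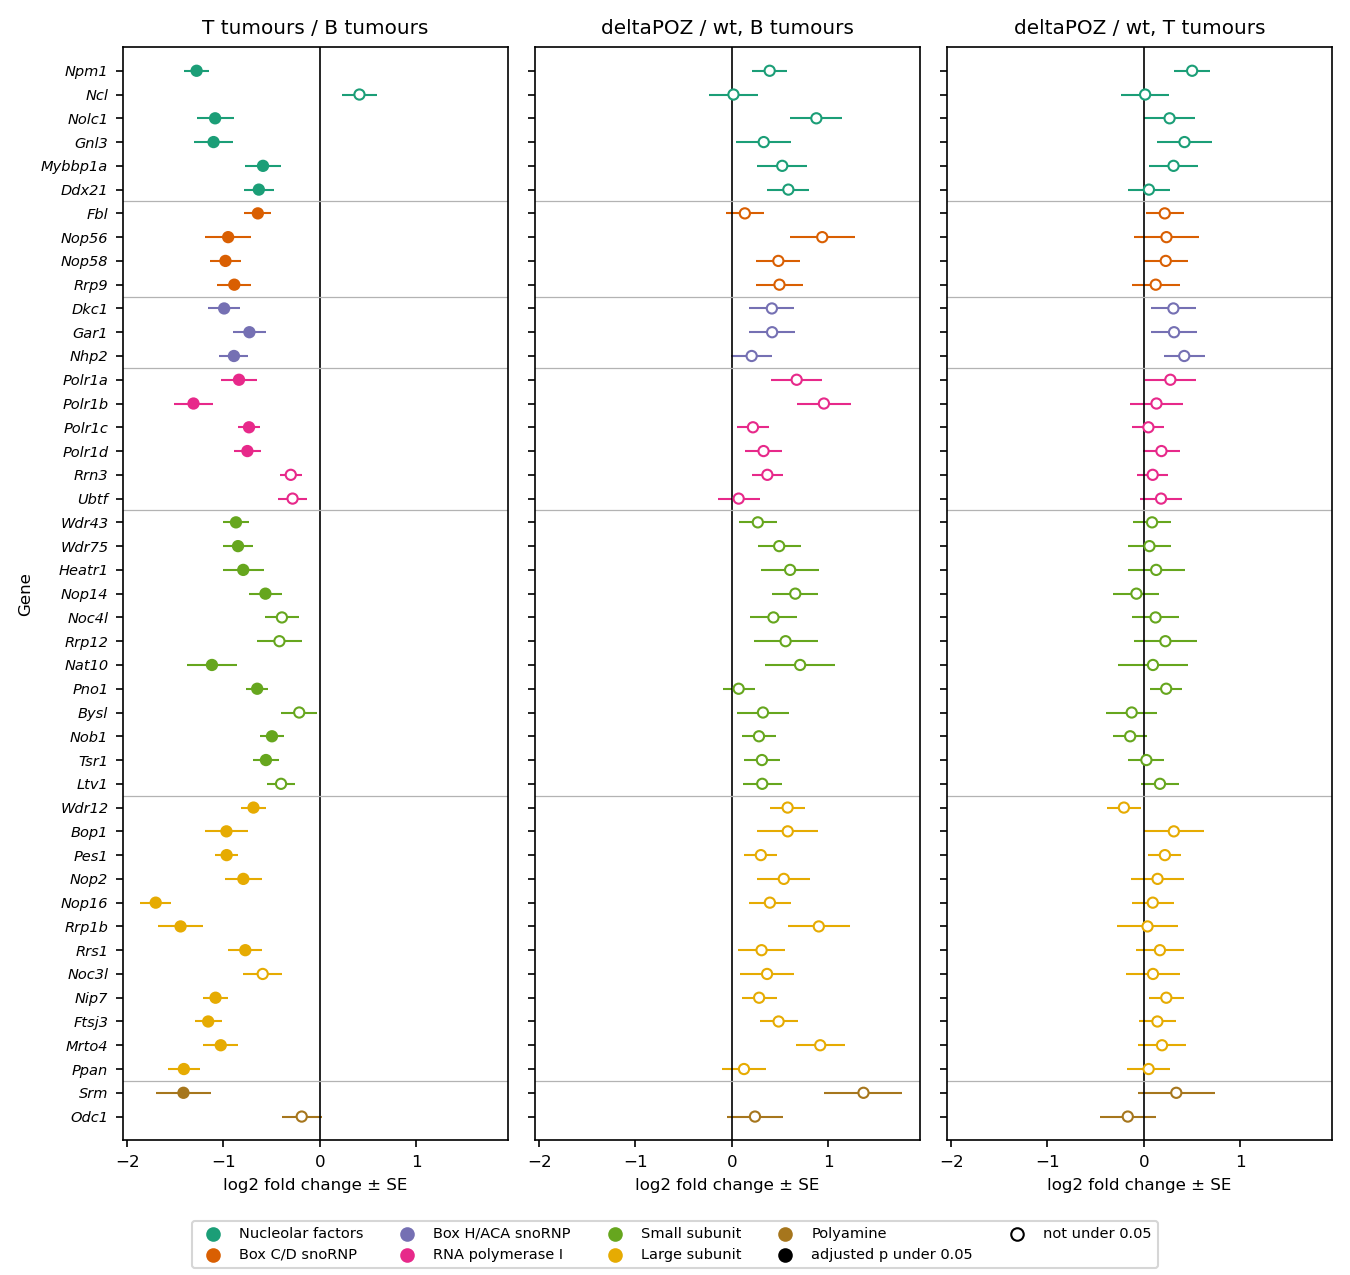
The log2 fold change of each gene (rows, coloured by role) with its standard error, for T over B tumours (left), deltaPOZ over wt in B tumours (middle) and deltaPOZ over wt in T tumours (right), all on one horizontal scale; filled points have an edgeR adjusted p under 0.05. The left panel holds all 36 filled points, all below 0, and Ncl is the 1 gene above 0 there.

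The nucleolar factors held the most abundant member. Npm1 (nucleophosmin, a histone and ribosome chaperone of the nucleolus; chr11:33152287-33163206, GRCm38) was at 1858 and 1515 CPM in T deltaPOZ, 1098 and 1284 in T wt, 4144 and 3739 in B deltaPOZ and 2938 and 3065 CPM in B wt tumours. The 4 groups did not overlap for this gene, with B deltaPOZ highest and T wt lowest. Its log2 fold change was -1.28 (SE 0.13, edgeR adjusted p = 0.00122) for T over B, 0.50 (SE 0.18) for deltaPOZ over wt in T and 0.39 (SE 0.18, edgeR adjusted p = 0.446) in B. Nolc1, a chaperone of snoRNPs, was at 262 and 179 CPM in T deltaPOZ, 159.8 and 206 in T wt, 531 and 625 in B deltaPOZ and 264 and 366 CPM in B wt tumours. The T libraries were all below the B libraries, and B wt 1 was close to T deltaPOZ 1. Nolc1 was at -1.09 (SE 0.19, edgeR adjusted p = 0.00665) for T over B and at 0.88 (SE 0.27, edgeR adjusted p = 0.32) for deltaPOZ over wt in B, the smallest p of the 6 nucleolar factors there. Gnl3 (nucleostemin, a nucleolar GTPase) was at 275 and 145 CPM in T deltaPOZ, 148 and 165 in T wt, 443 and 430.2 in B deltaPOZ and 339.6 and 354 CPM in B wt tumours. T deltaPOZ 1 was the high T library for Gnl3, at a log2 fold change of 0.42 (SE 0.29) in T, and genes of its chromosome, 14, had a median log2 difference of 0.50 in that library from the other 3 T libraries; the part of this shift in Gnl3's value was not tested. Gnl3 fell in T against B, at -1.10 (SE 0.21, edgeR adjusted p = 0.00808).

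Ddx21, an RNA helicase that acts on pre-rRNA, was at 550.4 and 384 CPM in T deltaPOZ, 429 and 471 in T wt, 878 and 865 in B deltaPOZ and 523 and 638 CPM in B wt tumours. Mybbp1a, a nucleolar Myb-binding protein, was at 349 and 233 CPM in T deltaPOZ, 225 and 245 in T wt, 452 and 491 in B deltaPOZ and 268 and 388 CPM in B wt tumours. For both, T deltaPOZ 1 was above B wt 1 and all other T libraries were below the B libraries. Ddx21 was at -0.63 (SE 0.15, edgeR adjusted p = 0.02) for T over B and at 0.59 (SE 0.22, edgeR adjusted p = 0.376) for deltaPOZ over wt in B. Mybbp1a was at -0.59 (SE 0.18, edgeR adjusted p = 0.045) for T over B, the adjusted p nearest to the threshold among the 36 that fell; scaled by library totals alone, its edgeR adjusted p was 0.0847. Ncl (nucleolin, a pre-rRNA binding protein) was the 1 gene with a positive T over B value, at 0.41 (SE 0.18, edgeR adjusted p = 0.116). It is named for that direction, seen in the data. Its levels spanned 907 to 1318 CPM in T and 671 to 984 CPM in B libraries, which overlap. Ncl, Gnl3, Nop56, Nop58 and Ppan hold snoRNA genes within their annotated exons on the same strand, so reads over both genes may have been counted as ambiguous and left out.

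All 4 proteins of box C/D snoRNPs fell in T against B. Most snoRNPs of this class guide methylation of rRNA sugars. Fbl (fibrillarin, the methyltransferase) was at 82.1 and 60.1 CPM in T deltaPOZ, 58.7 and 63.6 in T wt, 107 and 109 in B deltaPOZ and 94.7 and 102 CPM in B wt tumours. Nop58, a core scaffold protein, was at 398 and 322 CPM in T deltaPOZ, 248 and 366 in T wt, 746 and 805 in B deltaPOZ and 525 and 584 CPM in B wt tumours. In both genes every T library was below every B library and both B deltaPOZ libraries were above both B wt libraries. Nop56, the partner of Nop58 in the core, was at 363 and 291 CPM in T deltaPOZ, 256 and 299.5 in T wt, 588 and 1025 in B deltaPOZ and 323 and 518 CPM in B wt tumours. B deltaPOZ 2 was the highest library for Nop56, well above B deltaPOZ 1, and T deltaPOZ 1 exceeded B wt 1. Rrp9, a protein of the snoRNP that guides early cuts, was at 75.3 and 58.1 CPM in T deltaPOZ, 50.8 and 71.6 in T wt, 136 and 145 in B deltaPOZ and 85.9 and 113 CPM in B wt tumours. Log2 fold changes of T over B ran from -0.98 to -0.64, with edgeR adjusted p of 0.00547 to 0.0219. For deltaPOZ over wt in B, Nop56 was at 0.94 (SE 0.34, edgeR adjusted p = 0.37), Nop58 at 0.48 (SE 0.23, edgeR adjusted p = 0.45) and the other 2 at 0.14 to 0.49. In T all 4 were at 0.12 to 0.24.

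The 3 proteins of box H/ACA snoRNPs also fell in T against B. Most snoRNPs of this class guide the conversion of uridine to pseudouridine. Dkc1 (dyskerin, the pseudouridine synthase, encoded on the X chromosome, while sex differed with genotype in B) was at 277 and 238 CPM in T deltaPOZ, 162 and 254 in T wt, 558 and 507 in B deltaPOZ and 405 and 393 CPM in B wt tumours. Gar1, a core protein of the complex, was at 22.3 and 19.6 CPM in T deltaPOZ, 17.4 and 16.3 in T wt, 41.9 and 30.2 in B deltaPOZ and 25.3 and 28.6 CPM in B wt tumours. Nhp2, another core protein, was at 119 and 105 CPM in T deltaPOZ, 70.7 and 96.8 in T wt, 177 and 209 in B deltaPOZ and 154 and 181 CPM in B wt tumours. For each of the 3 genes every T library was below every B library. Both T deltaPOZ libraries were above both T wt libraries for Gar1 and Nhp2, and both B deltaPOZ libraries above both B wt libraries for Dkc1 and Gar1. T over B was -0.99 (SE 0.17, edgeR adjusted p = 0.0057) for Dkc1, -0.73 (SE 0.17, edgeR adjusted p = 0.0178) for Gar1 and -0.89 (SE 0.15, edgeR adjusted p = 0.00586) for Nhp2. For deltaPOZ over wt, Dkc1 was at 0.31 (SE 0.23) in T and 0.42 (SE 0.23) in B, Gar1 at 0.31 (SE 0.24) and 0.42 (SE 0.24), and Nhp2 at 0.42 (SE 0.21) and 0.21 (SE 0.21), and none passed. Genes of chromosome 3, where Gar1 lies, had a median log2 difference of 0.53 in B deltaPOZ 1 from the other 3 B libraries, and that library was the highest for Gar1; the part of this shift in Gar1's value was not tested.

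Of the RNA polymerase I genes the 4 subunits fell in T against B and the factors Rrn3 and Ubtf did not pass. Polr1a, the largest subunit, was at 207 and 134 CPM in T deltaPOZ, 117 and 165 in T wt, 329 and 372 in B deltaPOZ and 207 and 233 CPM in B wt tumours. Polr1b, the second largest, was at 157 and 97.6 CPM in T deltaPOZ, 107 and 125 in T wt, 373 and 469.7 in B deltaPOZ and 187 and 247 CPM in B wt tumours. For both, both B deltaPOZ libraries were above both B wt libraries, and the Polr1a level of T deltaPOZ 1 was just above that of B wt 1. T over B was -0.84 (SE 0.19, edgeR adjusted p = 0.0148) for Polr1a and -1.31 (SE 0.20, edgeR adjusted p = 0.00423) for Polr1b. For deltaPOZ over wt in B, Polr1b was at 0.96 (SE 0.28, edgeR adjusted p = 0.303) and Polr1a at 0.67 (SE 0.26, edgeR adjusted p = 0.391), the 2 smallest p of the 6 genes. Polr1c, a subunit shared with RNA polymerase III, was at 78.2 and 68.7 CPM in T deltaPOZ, 67.4 and 74.7 in T wt, 138 and 122 in B deltaPOZ and 114 and 109 CPM in B wt tumours. Polr1d, likewise shared, was at 103 and 105 CPM in T deltaPOZ, 78.0 and 106 in T wt, 179 and 191 in B deltaPOZ and 137 and 157 CPM in B wt tumours. Their T libraries were all below their B libraries, at -0.73 (SE 0.12, edgeR adjusted p = 0.00494) for Polr1c and -0.75 (SE 0.14, edgeR adjusted p = 0.00746) for Polr1d. In B both were at 0.22 to 0.33, less than either of the large subunits. In T the 6 genes were at 0.048 to 0.28, led by Polr1a at 0.28 (SE 0.26) and Polr1d at 0.18 (SE 0.19). Rrn3, which brings the polymerase to the promoter, was at -0.30 (SE 0.11, edgeR adjusted p = 0.0784) for T over B, and Ubtf, which marks active ribosomal RNA genes, at -0.28 (SE 0.15, edgeR adjusted p = 0.193).

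Among the 12 small-subunit factors 8 fell in T against B. Wdr43 was at 337 and 266 CPM in T deltaPOZ, 252 and 316 in T wt, 551 and 624 in B deltaPOZ and 480.2 and 494 CPM in B wt tumours. Wdr75 was at 148 and 112 CPM in T deltaPOZ, 113 and 137 in T wt, 275 and 269 in B deltaPOZ and 165 and 222 CPM in B wt tumours. Heatr1 was at 333 and 207 CPM in T deltaPOZ, 217 and 277 in T wt, 563 and 543 in B deltaPOZ and 289.9 and 437 CPM in B wt tumours. These 3 belong to the complex that joins pre-rRNA while it is still being transcribed; B deltaPOZ was above B wt for each, and only Heatr1 had a T library above a B library. T over B was -0.87 (SE 0.14, edgeR adjusted p = 0.00491) for Wdr43, -0.85 (SE 0.16, edgeR adjusted p = 0.00817) for Wdr75 and -0.80 (SE 0.21, edgeR adjusted p = 0.0271) for Heatr1. Nop14, needed for early small-subunit assembly, was at 62.3 and 45.4 CPM in T deltaPOZ, 59.8 and 53.8 in T wt, 92.8 and 113 in B deltaPOZ and 56.0 and 74.2 CPM in B wt tumours. Nat10, an acetyltransferase of rRNA cytidines, was at 117 and 71.2 CPM in T deltaPOZ, 68.0 and 108 in T wt, 260.1 and 245 in B deltaPOZ and 115 and 195 CPM in B wt tumours. Each had at least 1 T library above B wt 1, and both B deltaPOZ libraries were above both B wt libraries for each. Nop14 was at -0.56 (SE 0.17, edgeR adjusted p = 0.0406) for T over B, and its edgeR adjusted p was 0.0944 when scaled by library totals alone; Nat10 was at -1.12 (SE 0.26, edgeR adjusted p = 0.017). For deltaPOZ over wt in B the 2 smallest p of the 12 were those of Nop14, at 0.66 (SE 0.24, edgeR adjusted p = 0.372), and Wdr75, at 0.49 (SE 0.22, edgeR adjusted p = 0.439).

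Of the later-acting small-subunit factors Pno1, Nob1 and Tsr1 fell in T against B. Pno1, the partner of the nuclease Nob1, was at 77.7 and 76.2 CPM in T deltaPOZ, 63.9 and 67.1 in T wt, 105 and 124 in B deltaPOZ and 103 and 114 CPM in B wt tumours. Nob1, which makes the last cut of the small-subunit rRNA, was at 51.2 and 48.4 CPM in T deltaPOZ, 53.0 and 56.9 in T wt, 74.0 and 88.8 in B deltaPOZ and 63.0 and 70.9 CPM in B wt tumours. Both T deltaPOZ libraries were above T wt for Pno1 and below T wt for Nob1, while in B the deltaPOZ libraries were above wt for Nob1 and overlapped wt for Pno1. For deltaPOZ over wt in T, Pno1 was at 0.23 (SE 0.17) and Nob1 at -0.14 (SE 0.18). T over B was -0.65 (SE 0.12, edgeR adjusted p = 0.0072) for Pno1 and -0.50 (SE 0.13, edgeR adjusted p = 0.0236) for Nob1. Tsr1, a factor of the late pre-small subunit, was at 224 and 171 CPM in T deltaPOZ, 181 and 207 in T wt, 326 and 318 in B deltaPOZ and 245 and 273 CPM in B wt tumours, with every T library below every B library and T over B at -0.56 (SE 0.13, edgeR adjusted p = 0.0185). Of Tsr1's annotated exon bases 32.3% overlap exons of Srr on the other strand, and whether the counting used strand is not stated in the sources used here. Ltv1, an export and maturation factor, was at 51.4 and 40.5 CPM in T deltaPOZ, 37.7 and 44.1 in T wt, 61.1 and 66.7 in B deltaPOZ and 48.7 and 54.0 CPM in B wt tumours. The lineages overlapped for Ltv1, and T over B was -0.40 (SE 0.14, edgeR adjusted p = 0.0667). Bysl, Noc4l and Rrp12, all factors of small-subunit assembly, also did not pass, at -0.42 to -0.21 for T over B, 0.32 to 0.56 for deltaPOZ over wt in B and -0.13 to 0.22 in T.

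Among the large-subunit factors 11 of 12 fell in T against B, and Nop16 had the largest log2 fold change of the 45 genes. Nop16 (chr13:54584185-54590090, GRCm38), a protein of early large-subunit particles, was at 53.4 and 40.4 CPM in T deltaPOZ, 38.8 and 49.2 in T wt, 164 and 175 in B deltaPOZ and 116 and 142 CPM in B wt tumours. Rrp1b, a nucleolar factor of the same subunit, was at 100.4 and 61.1 CPM in T deltaPOZ, 71.9 and 85.4 in T wt, 299 and 295 in B deltaPOZ and 118 and 199.9 CPM in B wt tumours. Ppan, a factor of early large-subunit assembly known from its yeast counterpart, was at 129.9 and 85.5 CPM in T deltaPOZ, 96.5 and 112 in T wt, 285 and 303 in B deltaPOZ and 286 and 253 CPM in B wt tumours. Every T library was below every B library for the 3 genes, and Ppan alone of them showed no separation of B deltaPOZ from B wt. T over B was -1.70 (SE 0.16, edgeR adjusted p = 0.000882) for Nop16, -1.45 (SE 0.23, edgeR adjusted p = 0.00493) for Rrp1b and -1.41 (SE 0.16, edgeR adjusted p = 0.00173) for Ppan. The 3 proteins of the PeBoW complex, which processes the large-subunit rRNA, also fell in T against B. Pes1 was at 156 and 141 CPM in T deltaPOZ, 113 and 142 in T wt, 297 and 299 in B deltaPOZ and 253 and 232 CPM in B wt tumours. Bop1 was at 124 and 84.1 CPM in T deltaPOZ, 63.5 and 105 in T wt, 222 and 226 in B deltaPOZ and 123 and 176 CPM in B wt tumours. Wdr12 was at 166 and 144 CPM in T deltaPOZ, 195 and 163 in T wt, 314 and 342 in B deltaPOZ and 203 and 236 CPM in B wt tumours. Their log2 fold changes were -0.97 (SE 0.12, edgeR adjusted p = 0.00223) for Pes1, -0.97 (SE 0.22, edgeR adjusted p = 0.017) for Bop1 and -0.69 (SE 0.13, edgeR adjusted p = 0.00761) for Wdr12, with 1 T library of Bop1 above B wt 1. Wdr12 was at 0.58 (SE 0.18, edgeR adjusted p = 0.32) for deltaPOZ over wt in B and at -0.21 (SE 0.18) in T, and Pes1 at 0.22 (SE 0.17) in T.

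Of the remaining large-subunit factors, Mrto4, which prepares the stalk of the subunit, was at 84.1 and 76.9 CPM in T deltaPOZ, 56.3 and 85.0 in T wt, 199.9 and 223 in B deltaPOZ and 94.6 and 129 CPM in B wt tumours. Ftsj3, an rRNA methyltransferase, was at 239 and 199 CPM in T deltaPOZ, 174 and 223 in T wt, 553 and 548 in B deltaPOZ and 359.7 and 427 CPM in B wt tumours. Nip7, a factor of pre-rRNA processing, was at 88.5 and 81.2 CPM in T deltaPOZ, 65.1 and 79.2 in T wt, 174 and 192 in B deltaPOZ and 137 and 164 CPM in B wt tumours. Every T library was below every B library and both B deltaPOZ libraries were above both B wt libraries for the 3 genes; T deltaPOZ was also above T wt for Nip7. Nop2, an rRNA cytosine methyltransferase, was at 205 and 144 CPM in T deltaPOZ, 140.2 and 177 in T wt, 327 and 369.6 in B deltaPOZ and 189.8 and 289 CPM in B wt tumours. Rrs1, which in yeast helps to bring a small rRNA into the large subunit, was at 83.3 and 55.9 CPM in T deltaPOZ, 57.7 and 66.1 in T wt, 126 and 124 in B deltaPOZ and 86.5 and 115 CPM in B wt tumours. Nop2 had 1 T library above B wt 1, and Rrs1 none. Log2 fold changes of T over B were -1.03 for Mrto4, -1.16 for Ftsj3, -1.08 for Nip7, -0.79 for Nop2 and -0.77 for Rrs1, with edgeR adjusted p of 0.00191 to 0.0208. Noc3l, a nucleolar assembly factor, at -0.59 (SE 0.20, edgeR adjusted p = 0.0581), was the 1 large-subunit factor that did not pass. Mrto4 had the smallest p of all 45 genes for deltaPOZ over wt in B, at 0.92 (SE 0.25, edgeR adjusted p = 0.291). Nip7 was at 0.23 (SE 0.18) in T.

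Of the polyamine genes Srm fell in T against B and Odc1 did not pass. Srm, the spermidine synthase (chr4:148591503-148594993, GRCm38), was at 65.7 and 39.0 CPM in T deltaPOZ, 32.3 and 50.6 in T wt, 189 and 209.8 in B deltaPOZ and 52.8 and 102 CPM in B wt tumours. Both B deltaPOZ libraries were far above all other libraries, and B wt 1 was below T deltaPOZ 1. Srm was at -1.42 (SE 0.29, edgeR adjusted p = 0.0106) for T over B and at 1.37 (SE 0.40, edgeR adjusted p = 0.307) for deltaPOZ over wt in B, the largest value of the 45 genes there; DESeq2 gave an adjusted p of 0.0455 for the same comparison. Srm and Mrto4 lie on distal chromosome 4. The other 487 tested genes of chromosome 4 from 120 Mb had a median log2 fold change of 0.53 for deltaPOZ over wt in B, against -0.021 for the other autosomal genes, and the part of this shift in Srm and Mrto4 was not tested. Without all genes of chromosome 4, the other 43 of 43 genes were positive in B with a median of 0.41. Odc1 (ornithine decarboxylase, the first enzyme of polyamine synthesis) was at 282 and 305 CPM in T deltaPOZ, 225 and 434 in T wt, 386 and 384 in B deltaPOZ and 316 and 336 CPM in B wt tumours. T wt 2 was the highest library and T wt 1 the lowest, so the lineages overlapped. The 4 T libraries had the same order in Odc1 as in the erythroid marker sums given above, whose part was not tested. Odc1 was at -0.19 (SE 0.21, edgeR adjusted p = 0.514) for T over B. Without T wt 1 that value was 0.011 and without T wt 2 it was -0.47. Odc1 was at 0.24 (SE 0.29, edgeR adjusted p = 0.772) for deltaPOZ over wt in B and at -0.17 (SE 0.29) in T, and genes of chromosome 12, where it lies, had a median log2 difference of 0.59 in B wt 1 from the other 3 B libraries.

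Another 107 genes of the same pathways, listed by role and not among the 45, were compared by the same fits. For T over B, 63 of 107 fell (16% of all tested genes) and 1 rose (19.3%), 97 were negative (47.6%), and the median was -0.60. The 4 with the smallest p were Smox, Rcl1, Sms and Surf6. Smox, the spermine oxidase, was the 1 that rose, with 46.5 and 54.4 CPM in T deltaPOZ, 35.0 and 98.4 in T wt, 2.22 and 1.46 in B deltaPOZ and 1.31 and 2.05 CPM in B wt tumours and a T over B value of 5.04 (SE 0.42, edgeR adjusted p = 0.000623) on the log2 scale; the erythroid marker sums were high in the same libraries, with the highest sum and the highest Smox both in T wt 2, and their part was not tested. Rcl1, a small-subunit factor, was at -1.72 (SE 0.14, edgeR adjusted p = 0.000647), Sms, the spermine synthase, at -1.33 (SE 0.14, edgeR adjusted p = 0.00117), and Surf6, a nucleolar factor, at -1.09 (SE 0.13, edgeR adjusted p = 0.00174). For deltaPOZ over wt in B, 88 of 107 were positive (48.1% of all tested genes) with a median of 0.35. At an unadjusted edgeR p under 0.05, 24 were higher (5.68% of all tested genes), led by Ebna1bp2 (0.80), Nol9 (0.98) and Utp4 (0.75), while Oaz2, an inhibitor of ornithine decarboxylase, was at -1.12. The part of the chromosome 4 shift, given above for Srm and Mrto4, in these values was not tested. In T 72 of 107 were positive (49.8% of all tested genes) with a median of 0.056, and the smallest p were those of Znhit3 (-1.13), Taf1c (-0.50) and Ruvbl2 (0.48), with Arg2, at most 0.912 CPM in any library, left without a value. In B edgeR and limma-voom called 0 of these 107 and DESeq2 11, against 4.59% of all genes by DESeq2, with 2 lower at an unadjusted edgeR p under 0.05 (6.45% of all tested genes). In T edgeR, limma-voom and DESeq2 each called 0, with 0 higher (1.3% of all tested genes) and 1 lower (1.35%) at that level.

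**Figure D4:**
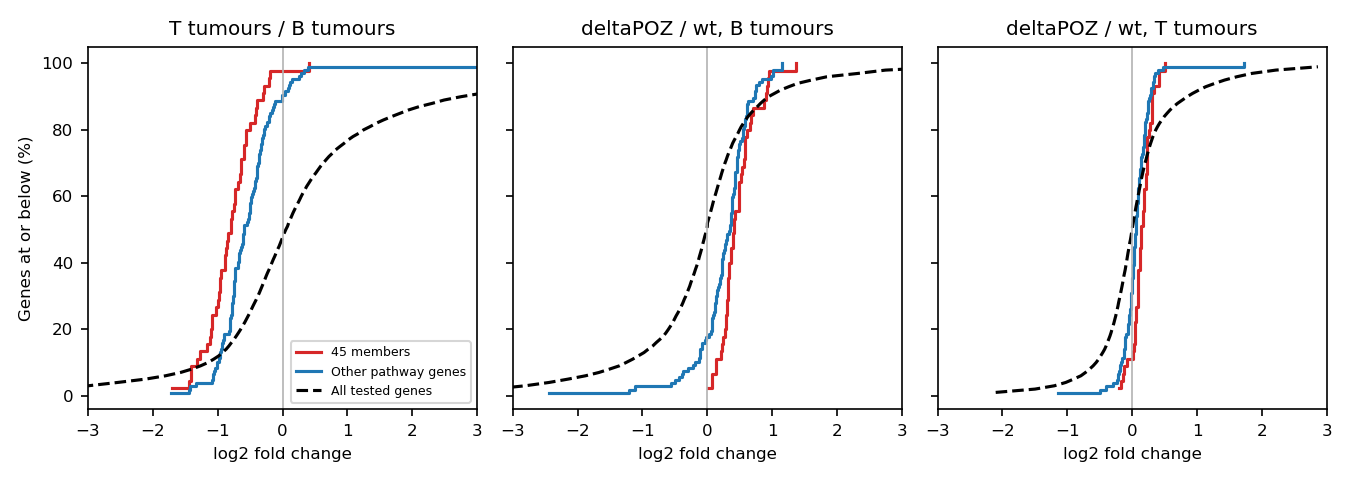
Cumulative share of genes (percent at or below each value) against log2 fold change, for the 45 genes, the other 107 pathway genes and all tested genes (dashed), in T over B tumours and in deltaPOZ over wt in B and in T tumours. The horizontal axis is limited to -3 to 3, so a few genes such as Smox, at 5.04 in the first panel, lie outside. The curve of the 45 genes is left of the dashed one in the first panel, with medians of -0.80 and 0.050, and right of it for deltaPOZ in B, with 0.42 and -0.009.

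Myc itself was at 104 and 76.2 CPM in T deltaPOZ, 125 and 83.2 in T wt, 473 and 525 in B deltaPOZ and 380.4 and 265 CPM in B wt tumours. Every T library was below every B library, and both B deltaPOZ libraries were above both B wt libraries. Its log2 fold change was -2.05 (SE 0.21, edgeR adjusted p = 0.00117) for T over B, 0.63 (SE 0.28, edgeR adjusted p = 0.437) for deltaPOZ over wt in B and -0.21 (SE 0.28) in T. In the order of the groups, Myc and the summed level of the 45 genes were both highest in B deltaPOZ, then B wt, and lowest in T. Within the lineages the orders differed. B wt 1 had the higher Myc of B wt, at 380.4 CPM, and the lower sum, at 11969 against 14072 CPM. In T, Myc was on average lower in deltaPOZ than in wt, while the sums were 10516 and 8044 CPM in deltaPOZ and 7365 and 8947 in wt. Within T the lowest sum was that of T wt 1, which had the highest Myc of the 4, at 125 CPM. Of 10 tested genes of the Myc network 3 rose (19.3% of all tested genes) and 1 fell (16%) in T against B. Of the proteins that compete with Myc for Max, Mxd1 rose, at 2.82 (SE 0.28, edgeR adjusted p = 0.00114), and Mxd3 rose, at 1.94 (SE 0.25, edgeR adjusted p = 0.00243). Mxd4, at 0.60 (SE 0.50, edgeR adjusted p = 0.383), Mnt, at 0.080 (SE 0.26, edgeR adjusted p = 0.831), and Mga, at -0.25 (SE 0.14, edgeR adjusted p = 0.209), did not pass. Mxd1 was at 44.9 and 53.7 CPM in T deltaPOZ, 44.4 and 102 in T wt, 8.29 and 8.01 in B deltaPOZ and 9.11 and 8.72 CPM in B wt tumours, in the same order in T as the erythroid sums, and Mxd3 was also highest in T wt 2, at 46.3 CPM; the part of these cells was not tested. Of 7 proliferation genes 1 rose (19.3% of all tested genes) and 0 fell (16%) in T against B. The one that rose was Mki67, a marker of cycling cells, at 0.84 (SE 0.15, edgeR adjusted p = 0.0066). The other 6 had negative values (47.6% of all tested genes), and the median of the 7 was -0.16. At an unadjusted edgeR p under 0.05, 1 of them was lower (21.6% of all tested genes). Zbtb17, which encodes Miz1, was at 40.1 and 36.9 CPM in T deltaPOZ, 49.6 and 42.3 in T wt, 49.4 and 59.1 in B deltaPOZ and 66.1 and 48.0 CPM in B wt tumours, and its count covers the whole gene and so does not check the deletion.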

How the data were processed

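Deposited values were HTSeq read counts per gene for 8 libraries made with a TruSeq Stranded mRNA kit; per the submitters' processing notes the authors used TopHat2 2.0.10, SAMtools, HTSeq and DESeq with mm10/GRCm38. Annotation release and strand setting: not given in the sources used here. No-feature counts (30.4 to 39.3% of gene, no-feature and ambiguous counts) and ambiguous counts (0.471 to 0.554%) were left out. Symbols and positions came from GENCODE M21, which held 40340 of 41214 identifiers (97.9%).

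In edgeR 4.0.16 (R 4.3.3), scaling factors came from the trimmed mean of M values, and filterByExpr removed genes with low counts. One mean per group was fitted with glmQLFit, leaving 4 residual degrees of freedom, and tested with glmQLFTest at a Benjamini-Hochberg threshold of 0.05 over all 16456 tested genes. Called means past that threshold. T against B is the mean of both T groups minus that of both B groups. The SE is the fold change divided by the square root of F. limma 3.58.1 (voom), DESeq2 1.42.0, other scalings and filters, and fits without each library were alternatives. The fit was also run on simulated counts with known changes. Their spread was the same for every gene and smaller than that of these data, so that run does not show performance here. Python 3.11.15 with pandas 2.3.3 and matplotlib 3.10.9 made the figures. Promoters came from a RefSeq table of GRCm38.p6.

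The 45 genes, the role lists, the tests and the libraries left out together were chosen with earlier results of these data known. Values in every library are given for genes called in any comparison, for the 2 smallest p per role and comparison, and for genes whose deltaPOZ and wt libraries do not overlap, in the same direction, in both lineages. T against B within each genotype, and the distal part of chromosome 4, were added after the data were seen. Transcript lengths for levels per kilobase came from GENCODE M21.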

Additional observations from a re-analysis of the deposited data

Results flagged for a closer look

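Nob1, the nuclease that makes the last cut of the small-subunit rRNA, lay on opposite sides in the lineages: both deltaPOZ libraries were below both wt libraries in T cell tumours and above both wt libraries in B cell tumours. This placement held for 1 of the 45 genes, against 2.35% of all tested genes. The deltaPOZ effect in T minus that in B was -0.42 on the log2 scale (SE 0.25, edgeR adjusted p = 0.827), so the test of the difference did not pass.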

How the results depend on the processing

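The T against B median of the 45 genes was negative under all 16 alternatives (-0.94 to -0.61), and the B median positive under all 17 (0.30 to 0.62). Leaving out 1 library at a time, the T against B count ran from 24 to 37, with 23 genes called in all 8 fits and 25 called without T deltaPOZ 2; the T median ran from -0.093 to 0.32, and the T minus B median from -0.52 to -0.11. Where 1 library of a group is left out, the lone sample is assumed to vary like the other groups. DESeq2 called 1 gene in B. Without B wt 2, T wt 1 and T deltaPOZ 2 the T against B count was 2, with all 44 negative values but Bysl's (0.079) keeping their sign; fewer libraries leave 1 residual degree of freedom. Within deltaPOZ tumours the count was 27 and within wt tumours 13, each from 2 against 2 libraries. Odc1 in T against B ran from -0.47 without T wt 2 to 0.011 without T wt 1. Scaling by library totals moved the median of all genes in T against B to 0.14 and called 33 of 45. The causes were not tested. No paired analysis was possible because the replicate numbers only name samples in accession order. Gene counts were at least 44330101 per library, and no alternative varied depth.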
